A study of Mus musculus with 20 samples.

Results

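The E proteins and their ID antagonists were described in 20 RNA-seq libraries of mouse embryonic fibroblasts (MEFs), lymphomas and leukaemias. The members are the E protein genes *Tcf3*, *Tcf4* and *Tcf12* and the ID genes *Id1*, *Id2*, *Id3* and *Id4*. They were chosen by gene symbol, and all 7 were found among the 25869 genes of the expression table. The study built a mouse that carries the CRISPR activation cassette *dCas9a-SAM*, in which a nuclease-dead Cas9 fused to an activation domain raises transcription of the gene that an sgRNA targets. The MEFs were 2 WT libraries, 2 *dCas9a-SAM* KI/+ libraries without an sgRNA, 2 *dCas9a-SAM* KI/+ libraries with a non-targeting sgRNA (sgNT) and 4 *dCas9a-SAM* KI/+ libraries with an sgRNA that activates *Bcl2* (sg*Bcl-2*), of which each pair came from 1 of 2 MEF lines. The lymphomas arose in irradiated mice that received blood stem and progenitor cells with sg*Bcl-2* from *Eµ-Myc* T/+;*dCas9a-SAM* KI/+ donors, so that all of them combined the B lineage *Myc* transgene, the cassette and the guide. They were 4 IgM-positive cell lines (lines P1 to P4), 2 IgM-negative cell lines (lines N1 and N2) and 2 IgM-positive primary tumours. The letters and numbers of the lines only name them here; each line came from 1 mouse, and no lymphoma without sg*Bcl-2* was among the libraries. The 2 preB-ALL libraries were labelled as BCR-ABL1 (p190T/+) leukaemias, with the titles P190CreERLSLErg and P190RagCreErg, and had been cultured with IL7.

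E proteins are basic helix-loop-helix (bHLH) transcription factors that pair with themselves or with tissue-restricted class II bHLH factors and bind the E-box, a short DNA motif written CANNTG. ID proteins have the helix-loop-helix part but lack the basic part that contacts DNA, so a pair of an ID protein and an E protein cannot bind the E-box. In B cell development the E proteins, above all the E2A proteins encoded by *Tcf3*, activate the genes of the surrogate light chain, of V(D)J recombination and of B cell identity, and the dose of ID protein sets how much E protein is free to act. ID genes are classical targets of bone morphogenetic protein (BMP) signalling through the receptor-regulated SMAD proteins, and *Id3* is also induced through EGR factors downstream of the pre-B and B cell receptor.

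The sequences just upstream of 3 ID genes are shown because *Id3* was readable in the lymphomas while *Id2* was low and *Id4* was near 0. Each run is the 250 bases before the gene's start in RefSeq on GRCm38.p6, 5′ to 3′ on the gene's strand, with CANNTG and GGCGCC in capitals. They lie at chr12:25096093-25096342 on the minus strand for *Id2*, chr4:136143572-136143821 on the plus strand for *Id3* and chr13:48260866-48261115 on the plus strand for *Id4*.
Id2: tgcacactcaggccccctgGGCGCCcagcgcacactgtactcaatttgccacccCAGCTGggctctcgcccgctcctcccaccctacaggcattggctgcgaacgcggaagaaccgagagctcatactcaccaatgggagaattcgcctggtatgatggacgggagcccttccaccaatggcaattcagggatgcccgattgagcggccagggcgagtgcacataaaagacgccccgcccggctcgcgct
Id3: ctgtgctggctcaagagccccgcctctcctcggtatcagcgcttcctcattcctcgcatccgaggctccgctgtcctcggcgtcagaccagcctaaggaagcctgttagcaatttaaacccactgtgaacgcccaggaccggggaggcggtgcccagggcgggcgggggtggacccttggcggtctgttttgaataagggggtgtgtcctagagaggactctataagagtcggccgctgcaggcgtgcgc
Id4: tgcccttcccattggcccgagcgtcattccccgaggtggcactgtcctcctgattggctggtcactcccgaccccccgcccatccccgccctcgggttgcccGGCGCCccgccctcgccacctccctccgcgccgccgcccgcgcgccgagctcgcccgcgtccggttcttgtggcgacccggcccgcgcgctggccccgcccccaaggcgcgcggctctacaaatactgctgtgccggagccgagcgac
Both motifs read the same on either strand. The E-box CANNTG was found 1 time before *Id2*, as CAGCTG, and in no place before *Id3* or *Id4* in these windows, while 66.2% of the 32851 promoters of the same length held it and 13.0% held CAGCTG. The letters GGCGCC, to which BMP-activated SMADs can bind, were found 1 time each before *Id2* and *Id4* and not before *Id3*, and 9.59% of all promoters held it. The EGR motifs GCGTGGGCG and GCGGGGGCG, searched on both strands, were found in none of the 3 windows and in 0.536% and 2.57% of all promoters. RefSeq windows were also matched for *Tcf3* and *Tcf12*, and none was matched for *Tcf4* and *Id1*.

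On GRCm38, *Tcf3* (Entrez 21423) spans chr10:80409541-80433976, *Tcf4* (21413) chr18:69343429-69687967, *Tcf12* (21406) chr9:71844252-72111893, *Id1* (15901) chr2:152736251-152737410, *Id2* (15902) chr12:25093799-25096092, *Id3* (15903) chr4:136143822-136145392 and *Id4* (15904) chr13:48261116-48266028. The libraries held between 12474885 and 26678417 reads on genes, with the 2 preB-ALL libraries the shallowest. *Bcl2*, the targeted gene, lay between 46.8 and 71.8 CPM (reads scaled to a library total of 1000000) in sg*Bcl-2* MEFs, against 13.4 and 13.7 CPM with sgNT, and between 99.4 and 165 CPM in the lines. WT MEF 2 stood apart: its 12 fibroblast markers summed to 3456 CPM, against at least 11351 CPM in each other MEF library, and its 8 myeloid markers to 222 CPM, against at most 8.87 CPM. The preB-ALL libraries were extracted with another kit, listed the mitochondrial genes at 0 and carried fibroblast transcripts, so that these features and the leukaemia type cannot be told apart. The titles and the descriptions of the 2 tumours gave opposite mouse numbers. The labelled B cell libraries held B cell markers, between 1210 and 7386 CPM over 8 genes. Values below are deposited CPM unless another scale is named, differences are log2 fold changes ± SE from limma after TMM scaling with 0.1 CPM added, and adjusted p-values are over all genes tested in a comparison. In all these bulk samples, fewer cells of a type and less RNA per cell cannot be told apart.

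*Tcf3*, which encodes the E2A proteins, was higher in the B lineage libraries than in MEFs. It lay between 93.8 and 137 CPM in the 10 MEF libraries. The IgM-positive lines gave 758 CPM in P1, 776 CPM in P2, 370 CPM in P3 and 615 CPM in P4, and the IgM-negative lines gave 527 CPM in N1 and 386 CPM in N2. The tumours gave 524 and 597 CPM and the preB-ALL libraries 579 and 901 CPM. Every B lineage library was thus above every MEF library. The IgM-negative lines lay below both preB-ALL libraries, as did the IgM-positive line P3 at 370 CPM and the tumour at 524 CPM. In the order of group means, preB-ALL (740 CPM ± 227, SD, n = 2) was followed by the IgM-positive lines (630 ± 188, n = 4), the tumours (561 ± 51.7, n = 2) and the IgM-negative lines (457 ± 100.03, n = 2), whose neighbouring ranges overlapped, and then, with a gap, by the MEFs.

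*Tcf4*, which encodes E2-2 and is known for its role in plasmacytoid dendritic cells and B cells, split the lymphoma lines. It was 235 CPM in P3 and 256 CPM in P4, against 89.9 CPM in P1, 88.1 CPM in P2, 98.5 CPM in N1 and 121 CPM in N2. The last 4 lines lay close to the MEFs, which ranged from 72.5 to 107 CPM. The preB-ALL libraries gave 256 and 156 CPM, and the tumours gave 34.2 and 52.7 CPM, the lowest of all 20 libraries. The higher values of P3 and P4 overlapped with preB-ALL, and the gap of the tumours to the lines was without overlap. By group mean, preB-ALL (206 CPM ± 70.8) and the IgM-positive lines (167 ± 90.6) stood at the top and the tumours (43.5 ± 13.1) at the bottom. In the same 2 lines, as seen after the values were known, *Dntt*, the gene of terminal deoxynucleotidyl transferase, was highest, at 833 and 173 CPM, against at most 6.42 CPM in the other 4 lines.

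*Tcf12*, which encodes HEB, the partner of E2A in early lymphocytes, varied least among the E protein genes. It lay between 99.04 and 161 CPM in MEFs, between 122 and 173 CPM in the 6 lines, and the preB-ALL libraries gave 208 and 143 CPM. The tumours were again lowest, at 69.6 and 85.5 CPM. MEFs, lines and preB-ALL overlapped, and only the tumours lay below all other libraries.

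*Id1* was near the limit of detection in the lymphomas. It lay between 48.1 and 134 CPM in MEFs, with WT MEF 2 lowest. The lines gave 0.0406 CPM in P1, 0.262 CPM in P2, 0.114 CPM in P3, 0.0996 CPM in P4, 0.0781 CPM in N1 and 0 in N2, where a count of 0 allows up to 0.129 CPM (3 reads). All 6 lines together held 15 *Id1* reads of 146596936, against 8691 of 97788866 in the sg*Bcl-2* MEFs, a ratio of 869 (95% interval 526.3 to 1553, which covers counting error only). Line P2 held 7 of the 15 reads, and without it the ratio was 1332. The tumours gave 0 and 0.0997 CPM, and the preB-ALL libraries, between MEFs and lymphomas, 30.6 and 15.8 CPM. The MEF, preB-ALL and lymphoma ranges did not overlap.

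*Id4* followed the same order at lower levels. It lay between 15.8 and 44.2 CPM in 9 MEF libraries and at 4.94 CPM in WT MEF 2. The 6 lines together held 4 reads, against 2354 in the sg*Bcl-2* MEFs, a ratio of 882 (95% interval 344 to 3241, counting error only), and 1443 without line P2, which held 2 of the 4 reads. Tumour libraries held 1 read each, at 0.0438 and 0.0499 CPM, and preB-ALL gave 0.935 and 0.321 CPM from 14 and 4 reads. No B lineage library reached 1 CPM. The 18 preB-ALL reads against the 4 of the lines gave a ratio of 24.0 (95% interval 7.92 to 97.6, counting error only), which was 11.8 without the first preB-ALL library and 39.3 without line P2. *Id4* passed the filter on low values only in comparisons that held MEFs.

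*Id2*, the ID gene required for innate lymphoid cells, was low but measurable in the lymphomas. It lay between 57.9 and 119 CPM in MEFs. The lines gave 2.51 CPM in P1, 0.937 CPM in P2, 0.948 CPM in P3, 1.10 CPM in P4, 2.19 CPM in N1 and 2.67 CPM in N2. The tumours gave 1.66 and 8.43 CPM, and preB-ALL 18.6 and 16.2 CPM. The lines, preB-ALL and MEFs were again 3 separate ranges, and line P1 stood apart from the other IgM-positive lines. In the tumour with 8.43 CPM the 6 markers of NK and innate lymphoid cells summed to 13.1 CPM, mostly the cytotoxic granule gene *Prf1*, against 5.65 CPM in the other tumour, at most 1.38 CPM in the lines and 4.54 to 10.9 CPM in MEFs. Of the 6 markers, only 1 was above 1 CPM in each tumour and in each MEF library. The part of NK and innate lymphoid cells in the *Id2* level was not tested.

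*Id3*, which restrains E proteins in developing and activated lymphocytes, was measurable in every lymphoma library. The lines gave 49.8 CPM in P1, 96.6 CPM in P2, 28.5 CPM in P3, 75.7 CPM in P4, 69.6 CPM in N1 and 55.1 CPM in N2, and the tumours 74.8 and 66.1 CPM. The preB-ALL libraries gave 176 and 182 CPM, above every lymphoma library. The MEFs ranged from 139 to 269 CPM without WT MEF 2, which lay at 73.9 CPM within the lymphoma range. In group means the order was no-sgRNA MEFs (264 CPM ± 6.13), sgNT MEFs (202.2 ± 15.7), preB-ALL (179.4 ± 4.25) and sg*Bcl-2* MEFs (158 ± 13.9), of which the first 3 did not overlap with the next. They were followed by WT MEFs (143 ± 97.1), whose range held that of the sg*Bcl-2* MEFs, and by tumours (70.4 ± 6.18), IgM-positive lines (62.6 ± 29.7) and IgM-negative lines (62.4 ± 10.2).

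**Figure D1:**
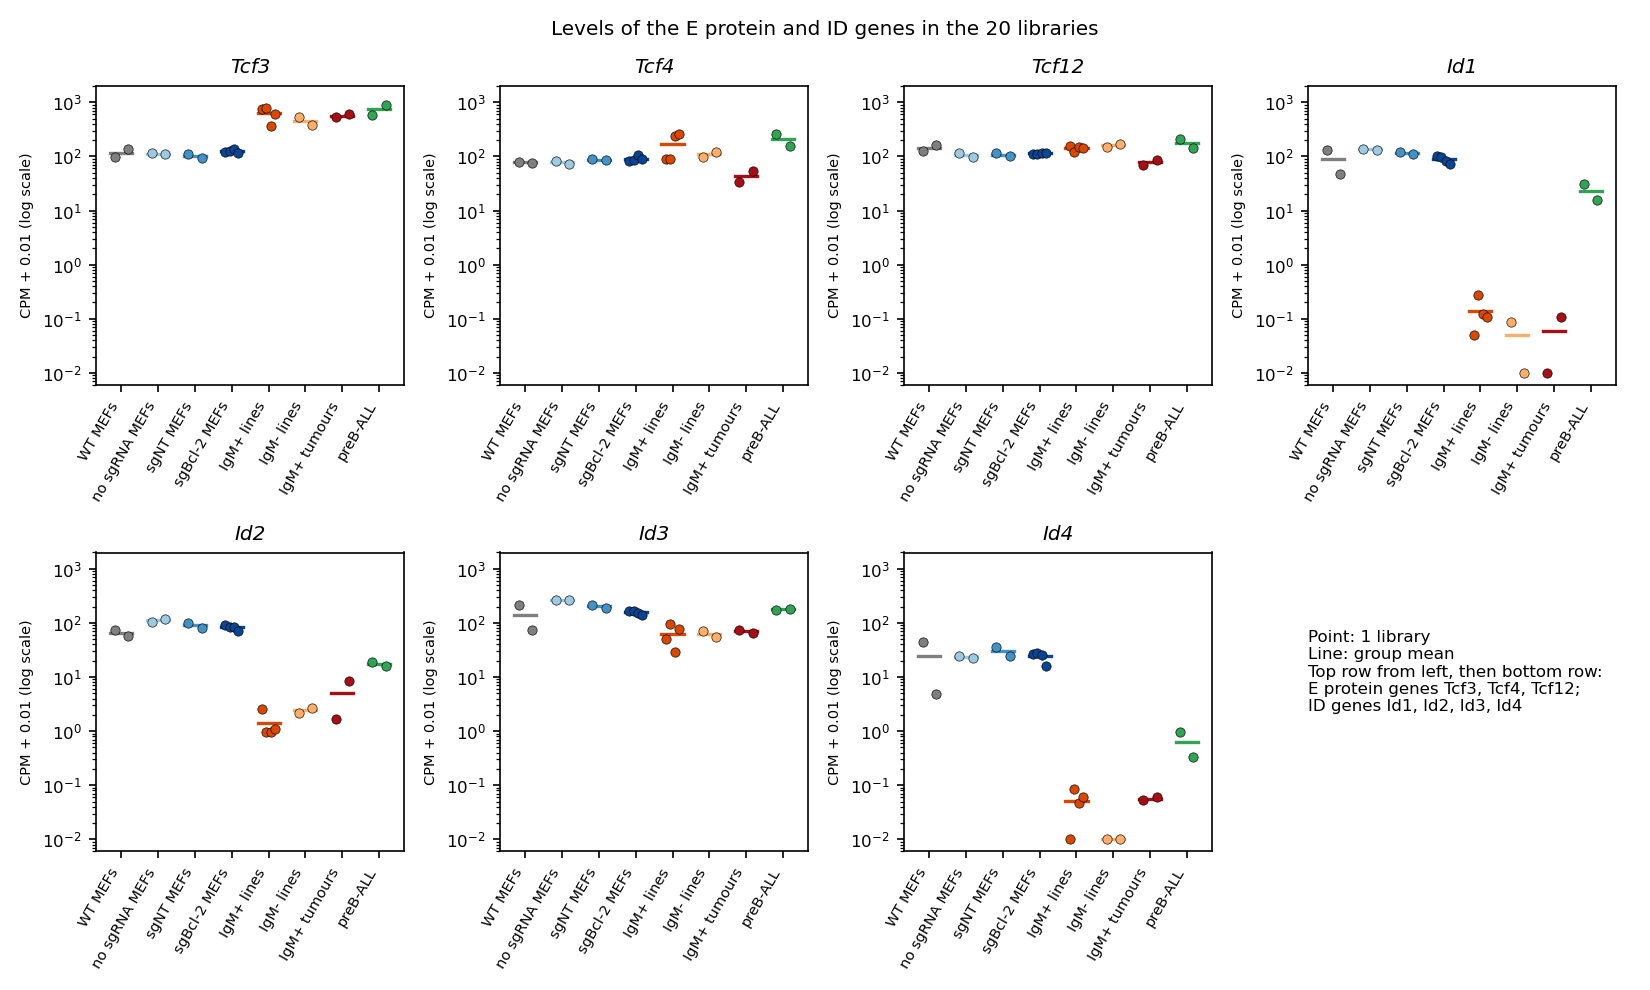
Each panel plots 1 gene, with CPM plus 0.01 on a log axis for the 20 libraries by group; points are libraries and lines are group means. Tcf3 is higher in every B lineage library than in every MEF library, Tcf12 is lowest in the tumours, and Id1 and Id4 fall below 1 CPM in lines and tumours while Id3 lies between 28.5 and 96.6 CPM there.

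The members were then set against each other per length, as CPM per kilobase of the longest annotated transcript. In the 10 MEF libraries *Id3* was highest at a mean of 145 CPM per kilobase, followed by *Id1* (88.8), *Id2* (44.0), *Tcf3* (39.5), *Tcf12* (18.6), *Tcf4* (9.89) and *Id4* (6.53). Per kilobase of exon union the MEF order of the last 2 was reversed, with *Id4* at 6.53 and *Tcf4* at 3.10, below *Tcf12* at 7.53. In the 6 lines *Tcf3* led at 194 CPM per kilobase, followed by *Id3* (48.9), *Tcf12* (23.6) and *Tcf4* (17.2), and *Id2* (0.876), *Id1* (0.0854) and *Id4* (0.00704) were low. *Tcf3* made up between 71.0% and 89.9% of the summed E protein RNA per kilobase in the lines, against 52.8% to 60.6% in MEFs. *Id3* made up between 96.7% and 99.1% of the summed ID RNA per kilobase in the lines, against 44.5% to 54.6% in MEFs, 92.2% and 98.6% in the tumours and 79.3% and 86.7% in preB-ALL. These RNA levels do not measure protein.

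The ratio of summed ID to summed E protein RNA per kilobase was above 1 in every MEF library and below 1 in every B lineage library. This depended on the length used: per kilobase of exon union the MEFs lay between 2.31 and 8.72, and on CPM not divided by length 3 MEF libraries fell below 1, at 0.962, 0.935 and 0.497. Per kilobase of the longest transcript it was 5.73 and 6.28 in no-sgRNA MEFs, 4.94 and 5.08 in sgNT MEFs, between 3.11 and 4.01 in sg*Bcl-2* MEFs and 5.26 and 1.62 in WT MEFs. Among the lines it was 0.1380 in P1, 0.261 in P2, 0.130 in P3, 0.230 in P4, 0.260 in N1 and 0.258 in N2. The tumours gave 0.308 and 0.252 and preB-ALL 0.671 and 0.475. MEFs, preB-ALL and lymphomas thus occupied separate ranges, and lines P1 and P3 had the lowest ratios. Line P3 had the lowest *Id3* of the lines, and P1 the next lowest. The ratio summarises the members and was given no test.

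**Figure D2:**
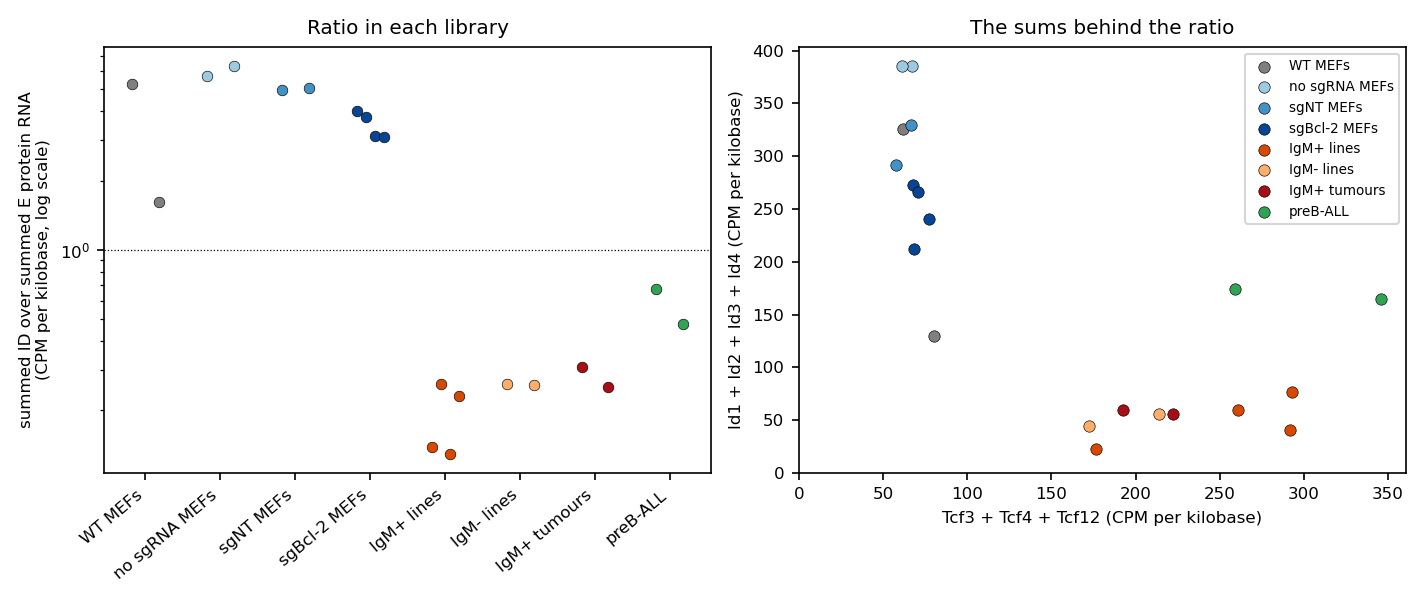
The left panel plots the ratio of summed ID to summed E protein RNA (CPM per kilobase, log axis) in each library, with a dotted line at 1, and the right panel plots the 2 sums. MEFs sit above 1 at 1.62 to 6.28, preB-ALL at 0.475 and 0.671, and the lymphoma lines and tumours at 0.130 to 0.308.

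The lymphoma lines were compared with preB-ALL to ask how the sg*Bcl-2* lymphomas differ from another B lineage tumour of mice. Of the 6 members tested, *Id1*, *Id2* and *Id3* were lower in the 6 lines and no E protein gene was called, where 43.4% of the 13961 genes tested were called, 20.9% higher and 22.5% lower. *Id2* differed by -3.03 ± 0.56 (adjusted p = 0.0029). *Id3* differed by -1.25 ± 0.38 (adjusted p = 0.028). *Id1* passed the filter on low values only through preB-ALL and is described by its reads, 655 in preB-ALL and 15 in the lines, a ratio of 233 (95% interval 140 to 419, counting error only), which was 154 without the first preB-ALL library and 358 without line P2. Each was lower in 6 of 6 lines than in both preB-ALL libraries. *Tcf3* differed by -0.03 (95% interval -0.75 to 0.68), *Tcf4* by -0.22 (-1.33 to 0.88) and *Tcf12* by 0.14 (-0.33 to 0.61). Without scaling, the *Tcf12* difference turned to -0.22. The *Id3* call was lost without the first preB-ALL library (adjusted p = 0.13), without the second (adjusted p = 0.15) and with the IgM-positive lines alone (adjusted p = 0.057).

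The preB-ALL libraries carried fibroblast transcripts, and these were set beside the ID genes. The 12 fibroblast markers summed to 3165 and 1465 CPM in preB-ALL, against 3456 to 19372 CPM in MEFs and 4.13 to 84.5 CPM in the lines. As a percentage of the mean of the 10 MEF libraries, the 12 markers had a median of 19.5% in the first preB-ALL library and 7.02% in the second. Collagen genes such as *Col1a2* lay at 40.1% and 17.9%, while the matrix gene *Dcn* was at 0 in both and *Thy1* at 0.0823% and 0.329%. On the same scale *Id1* lay at 29.7% and 15.3%, *Id2* at 21.5% and 18.7%, *Id3* at 95.4% and 98.6% and *Id4* at 3.72% and 1.28%. *Id1* and the median marker were higher in the first library, and *Id3* exceeded all 12 markers in both. The part of fibroblast RNA in the ID levels was not tested.

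**Figure D3:**
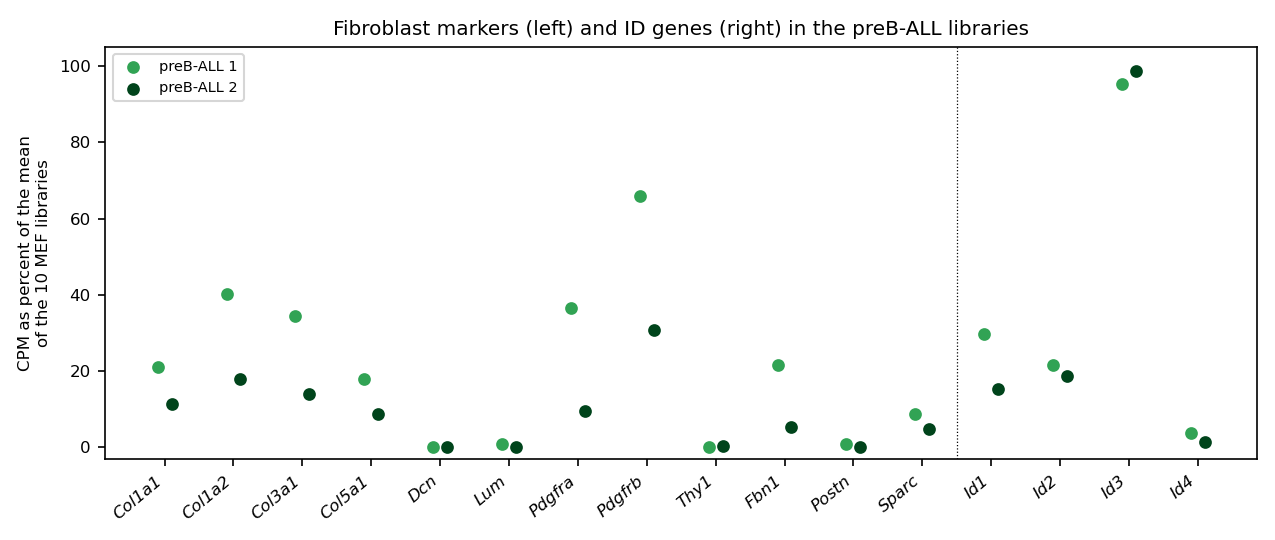
Each point gives the CPM of a gene in 1 of the 2 preB-ALL libraries as a percentage of its mean in the 10 MEF libraries, with 12 fibroblast markers on the left and the ID genes on the right. The markers reach at most 65.9%, Id1 and Id2 lie within their range, and Id3 lies at 95.4% and 98.6%.

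Genes that feed into ID expression were described from lists of their own. Of 23 genes of the BMP-SMAD pathway, 18 could be tested between lines and preB-ALL, of which 9 were lower, 1 was higher and 8 were not called, where 43.4% of all genes were called, 20.9% higher and 22.5% lower. Of the 9 lower genes, 6 passed the filter on low values only through preB-ALL, and genes that are at or near 0 in 1 group are given here and below by their levels without a fold or p. The lower genes included receptors and a transducer. *Eng*, a BMP co-receptor, was 153 and 170 CPM in preB-ALL and at most 0.548 CPM in the lines. The type I receptor gene *Bmpr1a* was 24.8 and 13.9 CPM in preB-ALL, against 0 to 2.06 CPM in the lines, and *Smad1* was 31.1 and 21.4 CPM against 0 to 0.996 CPM. *Smad5*, which encodes the other main BMP-regulated SMAD, was 79.7 to 112 CPM in the IgM-positive lines and 73.1 and 87.7 CPM in the IgM-negative lines, with 122 and 116 CPM in preB-ALL. *Bambi*, a decoy receptor, was the 1 gene higher in the lines (1.32 ± 0.33, adjusted p = 0.013). In MEFs *Bmpr1a* averaged 145 CPM, *Smad1* 29.9 CPM and *Eng* 89.7 CPM, so that *Eng* lay higher in preB-ALL than in MEFs and *Bmpr1a* far lower.

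All 3 EGR genes were lower in the lines, but only the call of *Egr1* can be read, where 43.4% of all genes were called and 22.5% were lower. *Egr1* was 303 and 171 CPM in preB-ALL and between 0.797 and 12.2 CPM in the lines (-5.89 ± 0.87, adjusted p = 9.7e-04). *Egr2* and *Egr3* passed the filter only through preB-ALL, so that their calls are no support. *Egr2* was 5.81 and 1.68 CPM in preB-ALL and at most 0.284 CPM in the lines, and *Egr3* was 14.0 and 2.81 CPM against at most 0.324 CPM. They are immediate early genes, which are induced quickly by receptor signals. In the tumours, *Egr1* lay at 2.89 and 7.03 CPM, within the range of the lines, whereas *Egr3*, at 1.10 and 1.35 CPM, lay above every line in both tumours and *Egr2*, at 0.131 and 1.15 CPM, in 1 of them.

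Of the 3 genes of ID protein turnover, 2 were higher in the lines, where 43.4% of all genes were called and 20.9% were higher. *Usp1*, which encodes a deubiquitinase known to stabilise ID proteins, was 289 to 410 CPM in the lines, against 274 and 138.3 CPM in preB-ALL (1.16 ± 0.25, adjusted p = 0.0066) and 37.1 to 74.8 CPM in MEFs. *Wdr48*, the gene of its cofactor, differed by 0.41 ± 0.14 (adjusted p = 0.044 in limma), while edgeR, voom and DESeq2 each called *Usp1* alone, 1 of the 3 genes. *Usp1* was thus high in lines in which *Id1*, *Id2* and *Id4* RNA was low and *Id3* RNA was measurable, at 28.5 to 96.6 CPM. Leaving out TMM scaling moved the median of all genes by -0.35 in this comparison, so that smaller differences such as that of *Wdr48* are relative to the scaling.

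**Figure D4:**
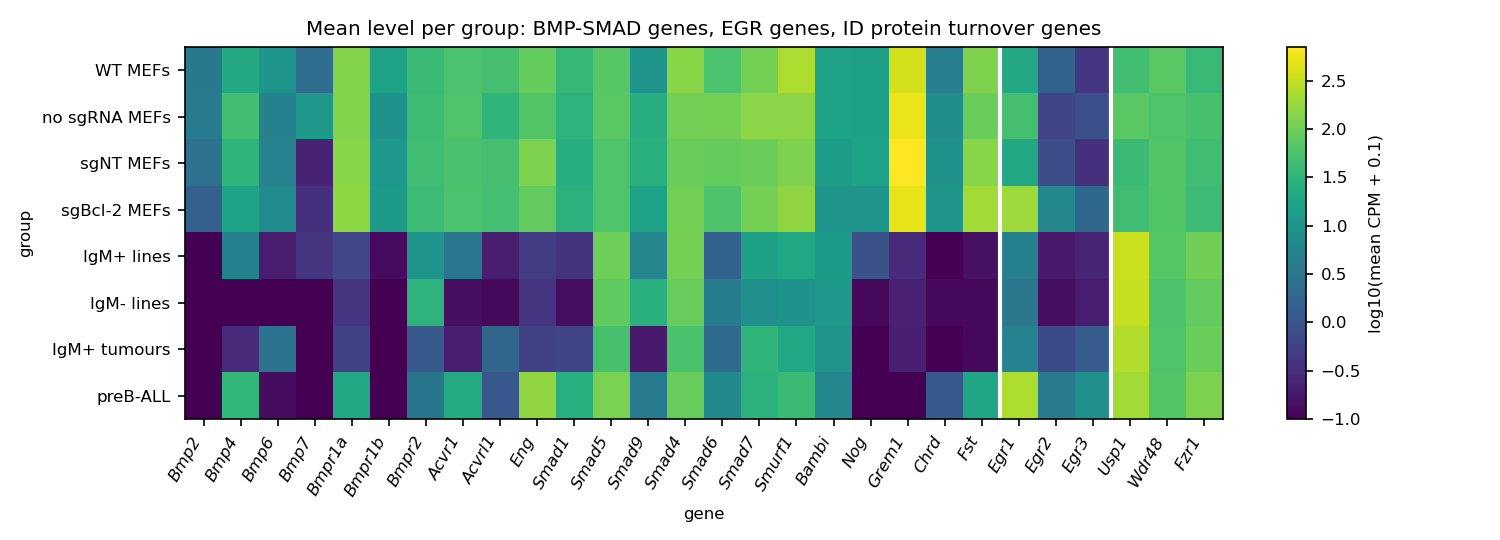
The colour gives log10 of the mean CPM plus 0.1 for 22 BMP-SMAD genes, 3 EGR genes and 3 ID protein turnover genes (columns, in that order) in the 8 groups (rows). Most BMP-SMAD genes are bright in MEFs and dark in lines and tumours, Egr1 is bright in preB-ALL and sgBcl-2 MEFs, and Usp1 is bright in all B lineage groups.

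The partners and targets of E proteins were described in the same comparison. Of 20 class II bHLH genes, 8 could be tested, of which 4 were lower in the lines and 1 was higher, where 43.4% of all genes were called, 20.9% higher and 22.5% lower. Of the lower genes, *Myod1*, *Twist1* and *Twist2* passed the filter only through preB-ALL, and *Atoh8* differed by -3.46 ± 1.01 (adjusted p = 0.024). *Twist1* and *Twist2* are mesenchymal factors and *Myod1* is a myogenic factor. *Twist1* and *Myod1* had 0 reads in all 6 lines, and *Twist1* averaged 4.86 CPM in preB-ALL and 62.9 CPM in MEFs. The higher one was *Bhlha15*, which encodes MIST1, a factor of secretory cells and plasma cells, at 20.9 to 52.5 CPM in the lines and 2.74 and 3.45 CPM in preB-ALL (3.89 ± 0.34, adjusted p = 4.5e-05). *Lyl1*, a partner of E proteins in blood progenitors, was 201.5 and 269 CPM in preB-ALL and 41.9 to 145 CPM in the lines. Among the 3 genes of ETO family corepressors, which dock on the activation domain of E proteins, *Runx1t1* passed the filter only through preB-ALL, at 0.481 to 1.80 CPM there and at most 0.122 CPM in the lines, and *Cbfa2t2* was higher in the lines (0.57 ± 0.17, adjusted p = 0.028).

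Of 16 known E protein target genes of the B lineage, 10 were lower in the lines than in preB-ALL, none was higher and 6 were not called (median difference -1.78, against -0.07 over all genes), where 43.4% of all genes were called and 22.5% were lower. The genes of the surrogate light chain led this group. *Vpreb2* averaged 635 CPM in preB-ALL and 2.14 CPM in the lines (-8.88 ± 1.35, adjusted p = 0.0011), and *Igll1* was 1370 and 1954 CPM in preB-ALL against 8.52 to 377 CPM in the lines (-4.04 ± 1.18, adjusted p = 0.024). *Cd79a*, *Cd79b* and *Pax5*, genes of B cell identity, differed by -1.35 ± 0.34, -1.53 ± 0.32 and -1.72 ± 0.40, and *Cdkn1a*, a cell cycle inhibitor gene that E47 can activate, was lower by 3.97 ± 0.83 (adjusted p = 0.0055). *Rag1*, *Rag2*, *Dntt*, *Ebf1*, *Blnk* and *Pou2af1* were the 6 genes not called, of which *Dntt* spanned 0.203 to 833 CPM among the lines. No difference in *Tcf3* RNA was called in this comparison. The part of the E protein and ID levels in the lower targets was not tested.

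The lymphoma lines were also set against MEFs with the same cassette and an sg*Bcl-2* guide. Of the 7 members 5 were called, where 81.3% of 14620 genes were called, with 36.3% higher and 45.0% lower. *Tcf3* was higher by 1.96 ± 0.20 (adjusted p = 5.8e-06). *Id2* differed by -5.80 ± 0.34 (adjusted p = 5.2e-08) and *Id3* by -1.60 ± 0.27 (adjusted p = 2.7e-04). The 2 others called, *Id1* and *Id4*, passed the filter on low values only through the MEFs, so that their difference is described by the read ratios of 869 and 882 above and not by the test. *Tcf4* (0.38, 95% interval -0.35 to 1.12) and *Tcf12* (0.20, -0.04 to 0.44) were not called. *Tcf12* was called without scaling (adjusted p = 0.0023) and without line P2 (adjusted p = 0.0022).

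Of the 56 listed genes tested between lines and sg*Bcl-2* MEFs, 49 were called, where 81.3% of all genes were called. Of the 49, 39 passed the filter on low values only through 1 of the groups, so that for them the levels are given and the call is no support. Of 22 BMP-SMAD genes tested, 18 were lower in the lines, of which 15 passed the filter only through the MEFs, among them the antagonist gene *Fst* at 184 to 223 CPM in the MEFs and at most 0.112 CPM in the lines. *Smad5* was higher (0.41 ± 0.12, adjusted p = 0.0091). All 3 EGR genes were lower, *Egr2* and *Egr3* among the 39, and *Usp1* and *Fzr1*, which encodes an activator of the anaphase-promoting complex, were higher by 2.68 ± 0.09 and 0.93 ± 0.13. Of 9 class II bHLH genes tested, *Twist1*, *Twist2*, *Hand2*, *Scx*, *Ascl2* and *Atoh8* were lower and *Bhlha15*, *Lyl1* and *Tal1* were higher, and all but *Atoh8* belonged to the 39. *Lyl1* lay between 41.9 and 145 CPM in the lines and between 0.214 and 0.687 CPM in the MEFs. The 12 E protein targets that were higher, of 16, were all among the 39, with *Pou2af1* at 587 to 922 CPM in the lines and 0.113 to 0.606 CPM in the MEFs, while *Cdkn1a* was lower (-7.60 ± 0.55, adjusted p = 2.7e-07). In the ETO family *Cbfa2t3* lay between 15.4 and 62.1 CPM in the lines and at most at 0.188 CPM in the MEFs, and *Runx1t1* at most at 0.122 CPM against 21.6 to 36.3 CPM.

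The IgM-negative and IgM-positive lines were compared to ask whether the members changed with the stage that surface IgM marks. None of the 5 members that passed the filter on low values was called by limma, with 0 at an unadjusted p under 0.05 and 0 by edgeR, voom or DESeq2, where 0.597% of 12386 genes were called, 0.0484% higher and 0.549% lower. *Id2* was higher in the IgM-negative lines by 0.95 (95% interval -0.33 to 2.22) and *Tcf12* by 0.25 (-0.13 to 0.63). *Tcf3* differed by -0.37 (-1.12 to 0.39), *Tcf4* by -0.38 (-1.67 to 0.90) and *Id3* by 0.18 (-0.92 to 1.29). The intervals of *Tcf3*, *Tcf4*, *Id2* and *Id3* reached past 1 on the log2 scale, so that smaller differences were not detectable with 2 and 4 lines. Of 40 listed pathway genes tested, 1 was called, the corepressor gene *Cbfa2t3*, which averaged 15.7 CPM in the IgM-negative lines and 49.6 CPM in the IgM-positive lines (-1.58 ± 0.20, adjusted p = 0.036 in limma). Of the same 40 genes edgeR and voom called 0, and DESeq2 called 10, beside 6.05% of all genes. At an unadjusted p under 0.05 in limma 13 of the 40 passed, beside 11.3% of all genes, and 9 of these were E protein targets, lower in the IgM-negative lines. By voom 6 E protein targets passed at that limit. Of the 40 genes, 10 passed the filter on low values only through 1 of the groups, 3 of them E protein targets. Their p-values are no support.

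The primary tumours were compared with lines P1 and P2, which came from the same mice. *Tcf4* was 34.2 and 52.7 CPM in the tumours and 89.9 and 88.1 CPM in the lines, and *Tcf12* was 69.6 and 85.5 CPM against 155 and 122 CPM. *Tcf3* was 524 and 597 CPM against 758 and 776 CPM. The 3 E protein genes were therefore lower in both tumours than in both lines, by -1.11 ± 0.27 for *Tcf4*, -0.88 ± 0.23 for *Tcf12* and -0.50 ± 0.17 for *Tcf3*, and in limma none of the 5 members tested was called, with adjusted p = 0.10, 0.11 and 0.17 for the 3 genes. By limma 0.330% of 12719 genes were called, 0.267% higher and 0.0629% lower. At an unadjusted p under 0.05 these 3 genes passed, beside 25.9% of all genes tested. DESeq2 called *Tcf4* and *Tcf12*, beside 16.5% of all genes, and edgeR and voom called 0 members. *Id3* differed by -0.03 (95% interval -0.91 to 0.85) and *Id2* by 1.19 (-1.47 to 3.85).

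The call for the E protein genes turned on how tumours were paired with lines. With a block for the mouse number in the titles, *Tcf4* (adjusted p = 0.016), *Tcf12* (adjusted p = 0.013) and *Tcf3* (adjusted p = 0.046) were called, beside 3600 of the 12719 genes (28.3%). With the number in the descriptions they had adjusted p = 0.32, 0.35 and 0.47, and 0 of the 12719 genes were called. The deviations of tumours and lines from their group means correlated at 0.60 across 12719 genes under the titles and at -0.60 under the descriptions. Both pairings are given because the labels disagree. The tumours were tissue and held other markers than the lines: the 8 myeloid markers summed to 41.7 and 31.2 CPM, against 13.1 and 6.11 CPM in lines P1 and P2. The 8 T cell markers summed to 160.5 and 257 CPM, nearly all of it *Cd2*, against 23.0 and 3.97 CPM in the lines, while Cd3d, Cd3e and Cd3g were at most 0.613 CPM in the tumours. The 8 B cell markers summed to 5445 and 5754 CPM against 2084 and 2076 CPM, and among them *Ms4a1* was 529 and 799 CPM against 4.06 and 7.46 CPM. The part of other cells in the lower E protein levels was not tested. None of the 40 listed pathway genes tested was called by limma, edgeR or voom, 17 had an unadjusted p under 0.05 in limma, beside 25.9% of all genes, and DESeq2 called 10, beside 16.5%. Of the 40 genes, 13 passed the filter on low values only through 1 of the groups, so that their p-values are no support.

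The MEF comparisons asked whether the cassette and its guides changed the members outside the B lineage. Against WT MEFs, none of the 7 members was called in no-sgRNA MEFs or in sgNT MEFs, where 0.00% of 14546 and 0.00% of 14560 genes were called by limma. At an unadjusted p under 0.05, 1 member (*Id2*) passed for no-sgRNA MEFs, beside 7.43% of all genes, and 0 for sgNT MEFs, beside 4.05%. By edgeR, voom and DESeq2 0 members were called in both. DESeq2 called 1.29% of all genes for no-sgRNA MEFs and 0.604% for sgNT MEFs, and edgeR and voom called 0. The spread came from the WT libraries, in which *Id1* was 130 and 48.1 CPM, *Id3* 211 and 73.9 CPM and *Id4* 44.2 and 4.94 CPM. Without WT MEF 2, the differences of sgNT from WT changed sign for *Id1* (0.54 to -0.25), *Id3* (0.70 to -0.13) and *Id4* (0.98 to -0.67), and 1 member was called, beside 11.2% of all genes tested. Without WT MEF 1 instead, 6 members were called, beside 53.4% of all genes. For no-sgRNA MEFs, 3 members were called without WT MEF 2, beside 31.8% of all genes, and 4 without WT MEF 1, beside 55.1%. Among the ID genes, the signs of *Id1*, *Id3* and *Id4* for sgNT and of *Id1* and *Id4* for no-sgRNA MEFs turned with the WT library that was left out, and that of *Id2* did not.

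Between sgNT and no-sgRNA MEFs, 3 ID genes were lower with the guide. *Id3* was 213.4 and 191 CPM with sgNT and 269 and 260 CPM without a guide (-0.40 ± 0.07, adjusted p = 0.0029). *Id1* was 119 and 109 CPM against 134 and 134 CPM (-0.25 ± 0.06, adjusted p = 0.018), and *Id2* was 99.9 and 81.7 CPM against 104 and 119 CPM (-0.31 ± 0.10, adjusted p = 0.038). The ranges did not overlap for the 3 genes. These 3 of 7 members stood against 41.1% of 14655 genes called in either direction, 20.3% higher and 20.9% lower, a share in either direction that was close to that of the members. Fibroblast markers also differed, though not all in 1 direction. The 12 markers summed to 16215 and 16448 CPM with sgNT and 12961 and 11351 CPM without. *Thy1* had a mean of 785 against 179.6 CPM, *Postn* 1634 against 384 CPM and *Dcn* 104 against 13.8 CPM. *Col1a1* went the other way, at a mean of 4373 against 4738 CPM, and *Col5a1* was similar, at 1286 against 1240 CPM. The part of the fibroblast markers in the ID differences was not tested. *Id4* and the 3 E protein genes were not called, with *Tcf3* at -0.14 (95% interval -0.34 to 0.05). With the MEF number as a block *Id3* had adjusted p = 0.0067 and *Id1* and *Id2* had 0.051 each, although the differences between the numbers correlated at only -0.05 between these groups. *Id1* was also lost without any 1 of the no-sgRNA libraries (adjusted p = 0.11 and 0.095) or without the second sgNT library (0.068), and *Id2* without the second no-sgRNA library (0.20) or the second sgNT library (0.18), without scaling (0.052) and without the filter on low values (0.088). *Id4* was called without the second sgNT library (0.54, adjusted p = 0.013). When all 10 MEF libraries shared 1 spread, no member was called, with adjusted p = 0.64 for *Id3*.

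In the same comparison, 11 of 23 BMP-SMAD genes were called, 5 higher and 6 lower, where 41.1% of all genes were called, 20.3% higher and 20.9% lower. The ligand gene *Bmp7* averaged 11.9 CPM without a guide and 0.131 CPM with sgNT and passed the filter only through the former, and *Bmp4* was 34.6 and 31.7 CPM against 46.5 and 49.1 CPM (-0.54 ± 0.08, adjusted p = 0.0014). *Smad6* and *Smad7*, which encode inhibitory SMADs and are, as the ID genes, induced by BMP signals, were lower by 0.38 and 0.67 on the log2 scale. Among the higher genes, *Eng* differed by 1.01 ± 0.10 (adjusted p = 3.1e-04). *Egr1* was 20.8 and 19.3 CPM against 58.3 and 43.1 CPM (-1.33 ± 0.13, adjusted p = 2.7e-04), and *Usp1* was lower by 0.85 on the log2 scale (SE 0.07). Of 9 class II bHLH genes tested, *Twist2*, *Twist1* and *Hand2* were higher and *Hand1*, *Scx* and *Tcf21* were lower, with *Twist2* at 1.42 ± 0.08 (adjusted p = 2.0e-05). *Hand1* and *Tcf21* passed the filter only through the no-sgRNA MEFs.

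Between sg*Bcl-2* and sgNT MEFs, *Tcf3* was the member called, where 10.8% of 14676 genes were called, 6.61% higher and 4.24% lower. It lay at 120, 126, 137 and 117 CPM with sg*Bcl-2* and at 113 and 93.8 CPM with sgNT (0.37 ± 0.08, adjusted p = 0.027), and it was not called without either sgNT library, without the second sg*Bcl-2* library, without scaling (adjusted p = 0.080) or with all 10 MEF libraries in 1 fit (0.24). *Id3* was 169, 168, 154 and 139 CPM with sg*Bcl-2*, below both sgNT libraries at 213.4 and 191 CPM (-0.27 ± 0.08, adjusted p = 0.067, and 0.038 without scaling), and *Id1* was 101.0, 98.7, 82.0 and 73.0 CPM, below 119 and 109 CPM (-0.29 ± 0.12, adjusted p = 0.15). With the MEF number as a block, both were called at adjusted p = 0.019 for *Id3* and 0.042 for *Id1*, beside *Tcf3* at adjusted p = 0.024, where 14.6% of the 14676 genes were called. *Id2* (-0.05), *Id4* (-0.23), *Tcf4* (0.14) and *Tcf12* (0.18) were not called in either fit. The comparisons of sgNT with no-sgRNA MEFs and of sg*Bcl-2* with sgNT MEFs share the sgNT libraries.

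The 3 EGR genes were higher in sg*Bcl-2* MEFs than in sgNT MEFs. *Egr1* was 115, 130, 266 and 246 CPM with sg*Bcl-2* against 20.8 and 19.3 CPM with sgNT (3.23 ± 0.33, adjusted p = 0.0023), *Egr2* differed by 2.71 ± 0.50, and *Egr3* was 1.25 to 2.67 CPM against 0.244 and 0.248 CPM and passed the filter only through the sg*Bcl-2* MEFs. *Id3* lay below its sgNT level in the same libraries but was not called in the main fit, and a link to the EGR genes was not tested. Of all genes 10.8% were called, 6.61% higher and 4.24% lower. Of 22 BMP-SMAD genes tested, *Fst*, *Bmp6* and *Smurf1* were higher and *Smad9*, *Eng* and *Smad6* were lower, with *Fst* at 0.57 ± 0.10 (adjusted p = 0.011) and *Smad9* at -0.63 ± 0.13 (adjusted p = 0.020). Of the 9 class II bHLH genes tested, *Twist2* was higher by 1.01 ± 0.11 (adjusted p = 0.0031), *Ascl2* was higher by 2.40 ± 0.31 and *Atoh8* was lower by 0.51 on the log2 scale (SE 0.13, adjusted p = 0.044). None of the 3 turnover genes was called.

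**Figure D5:**
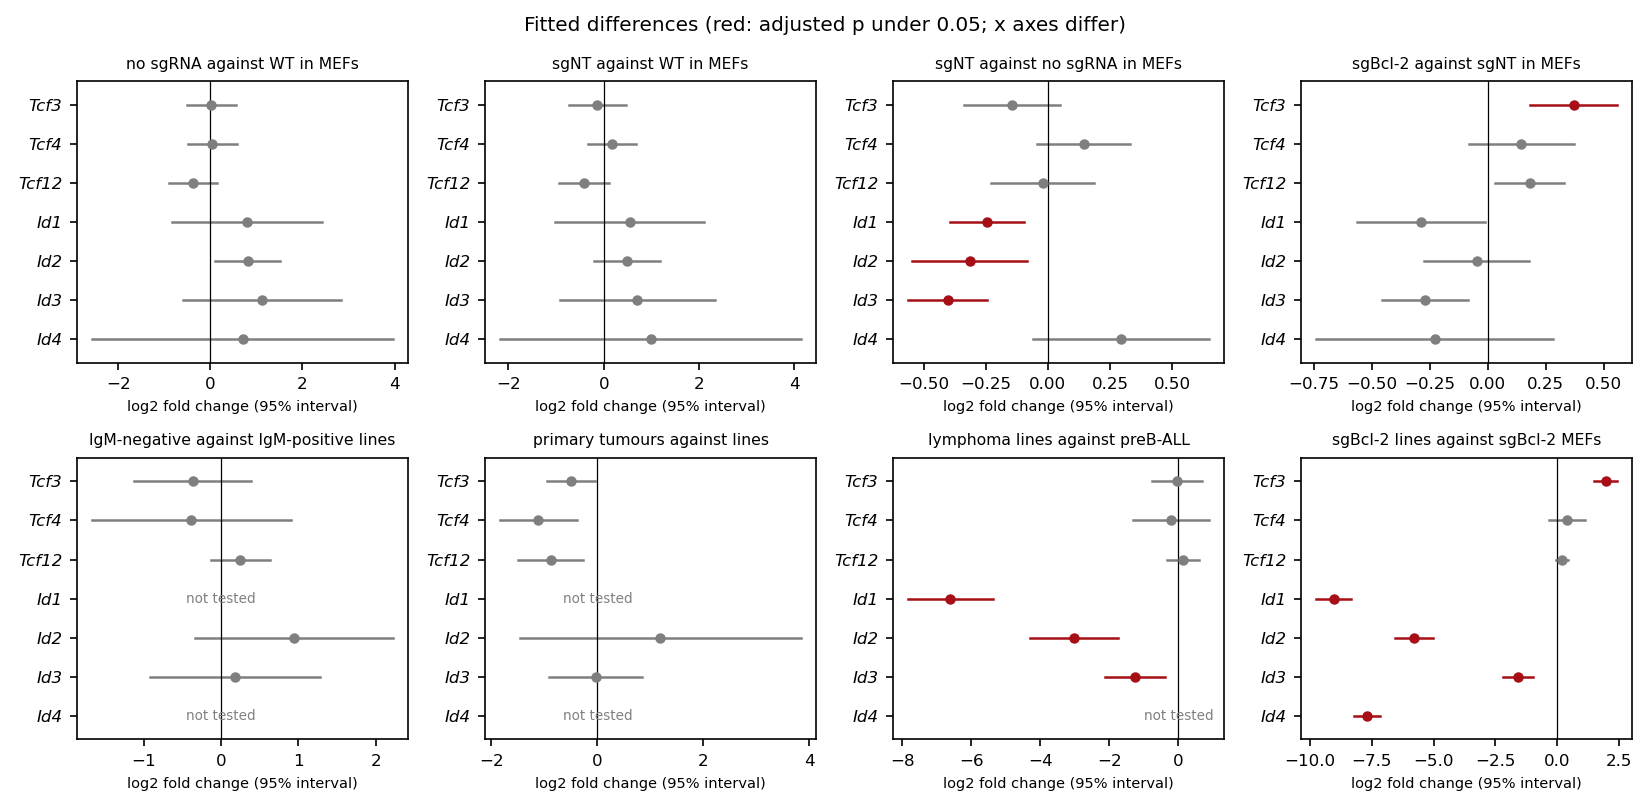
Each panel is 1 comparison, with the log2 fold change and its 95% interval for the 7 genes in red where the adjusted p was under 0.05, and with x axes that differ between panels. Id2 and Id3 differ by -1.25 to -5.80 in the panels of lymphoma lines against preB-ALL and sgBcl-2 MEFs, where Id1 and Id4 had too few reads in the lines for the test to be read, and the called ID genes of the MEF panels by at most -0.40.

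The genes most like each member were named by the Pearson correlation of log2 values over the 20 libraries among 16482 other genes, as a description in which MEF and B lineage libraries supply most of the variation. *Tcf3* was most like *Gpd1l* (r = 0.982), *Irf4* (0.980), which encodes a B cell transcription factor, and *1700113A16Rik* (0.979). *Id1* was most like *Arhgef5* (0.997), the collagen gene *Col5a2* (0.996) and *Pmp22* (0.996), *Id2* like *Eogt* (0.988), *Tbx2* (0.985) and *Fmn1* (0.985), and *Id4* like *Fbxo25* (0.994), *Gria3* (0.993) and *Ccng1* (0.993). *Id3* was most like *Cfap36* (0.94), *Mocs2* (0.94) and *B130055M24Rik* (0.94). *Tcf12* was most like *Qser1* (0.94), *Ncoa6* (0.87) and *Hmbox1* (0.85), and *Tcf4* like *Svil* (0.88), *Smad5* (0.85) and *Mei4* (0.84). Among the members, *Id1* and *Id2* correlated at 0.96, *Tcf3* and *Id4* at -0.94 and *Tcf4* and *Tcf12* at 0.72.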

How the data were processed

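RNA-seq libraries were prepared by the authors with a TruSeq RNA kit and aligned with Rsubread to GRCm38, and the table lists Entrez genes. The authors deposited CPM, each value divided by its column total, and 100.0% of the values were whole multiples of 1 read within 0.001, so that reads were recovered. Gene symbols and positions came from RefSeq on GRCm38.p6 and transcript lengths from GENCODE. Libraries held 12474885 to 26678417 reads. Whether reads were counted by strand was not given in the sources used here.

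Groups were taken from the labels. The main test was limma 3.58.1 with a trend on log2 of TMM-scaled CPM plus 0.1, on genes kept by edgeR 4.0.16 filterByExpr, with Benjamini-Hochberg adjustment at 0.05 over the whole table. The p-values measure only the spread between libraries, which may be technical among MEFs. No pair of libraries agreed within sampling noise. The titles give the *dCas9a-SAM* KI/+ groups the same MEF numbers, read here as MEF lines. The differences between the numbers correlated at 0.32 between sgNT and sg*Bcl-2* MEFs, at -0.05 between no-sgRNA and sgNT MEFs and at -0.13 between no-sgRNA and sg*Bcl-2* MEFs. Alternatives were edgeR, voom, DESeq2 1.42.0, other scaling, a pseudocount of 0.5, no filter, blocks, other sample sets and leaving out each library. Named genes were the 7 members, the gene with the smallest adjusted p per list and direction with up to 4 more examples, and the 3 most alike genes per member. The members and lists were chosen with earlier results of these data known. Some listed genes are counted in their lists and not reported by name here. The scripts were tested on simulated data.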

Additional observations from a re-analysis of the deposited data

Results flagged for a closer look

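In groups of 4 to 10 libraries, a highest or lowest library was looked for whose gap to the next one was large against the range of the group (Dixon's 95% limit), which chance meets in about 1 of 20 groups. Over 28 pairs of gene and group, 3 libraries passed. *Id2* in line P1, at 2.51 CPM, stood above the other 3 IgM-positive lines. *Tcf12* in WT MEF 2, at 161 CPM, stood above the other 9 MEF libraries, and *Tcf4* in the third sg*Bcl-2* MEF library, at 107 CPM, stood above the other 9.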

How the results depend on the processing

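The number of members called among the tested was recomputed under each alternative. Against WT it ranged from 0 to 6 for sgNT MEFs and from 0 to 4 for no-sgRNA MEFs when 1 library was left out, and with all 10 MEF libraries in 1 fit it was 1 for no-sgRNA MEFs. For sg*Bcl-2* against sgNT it was 0 to 1 with 1 library left out, 0 with all 10 MEF libraries, 3 with the MEF number as a replicate block and 3 with the sg*Bcl-2* libraries summed per line and the block. For sgNT against no sgRNA it was 1 to 3 with 1 library left out, 0 with all 10 MEF libraries and 1 with the block. For tumours against lines it was 2 with DESeq2 (beside 16.5% of all genes), 3 with the block by the titles (28.3%) and 1 with all 4 IgM-positive lines (10.9%). It was 2 to 3 for lines against preB-ALL and 5 to 6 for lines against sg*Bcl-2* MEFs with 1 library left out. The blocks changed no other call of a member. With all 10 MEF libraries in 1 fit, 4.73% of all genes were called for no sgRNA against WT. For sg*Bcl-2* against sgNT the share was 0.422% with all 10 MEF libraries, 14.6% with the block and 17.6% with the summed libraries and the block. For sgNT against no sgRNA it was 5.94% with all 10 MEF libraries and 36.9% with the block. Several uncalled log2 differences changed sign when 1 library was left out. Against WT with sgNT, *Tcf3* ranged from -0.26 to 0.023, *Id4* from -0.67 to 2.67, *Id1* from -0.25 to 1.38 and *Id3* from -0.13 to 1.58. Against WT without sgRNA, *Tcf3* ranged from -0.088 to 0.16, *Id4* from -0.96 to 2.40, *Tcf4* from -0.071 to 0.20 and *Id1* from -0.011 to 1.65, while *Id4* was -0.10 with edgeR and -0.11 with DESeq2 and *Tcf3* was -0.021 without scaling. For sg*Bcl-2* against sgNT, *Id2* ranged from -0.16 to 0.071 and *Id4* from -0.47 to 0.020. For sgNT against no sgRNA, *Tcf12* ranged from -0.13 to 0.092. For lines against preB-ALL, *Tcf3* ranged from -0.34 to 0.19 and was 0.083 with the IgM-positive lines alone, *Tcf4* ranged from -0.68 to 0.15, and *Tcf12* ranged from -0.23 to 0.42, was -0.22 without scaling and -0.18 with tumours in place of their lines. *Id3* ranged from -0.14 to 0.42 for IgM-negative against IgM-positive lines and from -0.47 to 0.39 for tumours against lines, where it was 0.019 without scaling and 0.29 with all 4 lines. Where a group was left with 1 library, that library was assumed to vary like the others. Of 741 values recomputed, 664 kept direction and side of the threshold. The cause of the changes was not tested. The read ratios of *Id1* and *Id4* were recomputed without each library after the data were seen. Few reads limit the precision of *Id1* and *Id4* in the lymphomas, and groups of 2 libraries limit the comparisons that hold one.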
